A study of Canis lupus familiaris and Eptesicus fuscus and Equus caballus with 6 samples.

Results

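Repeat RNA in the testis of the dog (Canis lupus familiaris) was described from 1 library, the mRNA library of adult dog testis, using every repeat model listed for it. There were 955 such models, of 2452 listed in the 3 mRNA libraries of the series. The series holds 6 libraries, 1 of small RNA and 1 of mRNA from the testes of each of 3 species, and its title concerns the targeting of transposable elements by piRNAs in mammals that differ in element activity. Per the labels, total RNA was taken with TRIzol from ground, snap-frozen tissue. The dog was an adult with no treatment or genotype named. The labels used here name no exact age, no breed and no number of animals behind the library. With 1 library there is no replicate, so no test was made, and the error given beside each value is the lower and upper TPM bound that the authors deposited, which covers the reading of this library and not the spread between dogs. All models are repeats, so the labelled tissue could not be checked against genes of testis cell types. In such bulk RNA a low level in all cells and a high level in few cells cannot be told apart.

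Transposable elements are DNA sequences that move or are copied within a genome. LINEs such as L1 encode the proteins that copy them through RNA, SINEs are short elements that borrow those proteins, LTR elements are related to retroviruses, and DNA transposons move as DNA. The germ line is where a new copy can pass to offspring, and in the testis piRNAs and DNA methylation are known to hold elements down. A repeat model here is a family or a part of one, and its name carries its class, such as LINE/L1, at its end. TPM is a level per length, scaled so that all models of the library add up to the same total, and it allows models of different length to be compared. Reads were rebuilt from TPM as TPM times the model length minus 24 nt, divided by the value of 1 read. The 955 models held 679582 rebuilt reads, of which rRNA took 84.4%, and 103631 were on the 682 transposable element models.

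Of the 955 models, 329 (34.5%) had a TPM above 0 and 626 were listed at 0. Among the 682 element models 277 (40.6%) had reads, against 52 (19.05%) of the 273 models that are no transposable element. The share with reads differed widely between the main groups. SINEs had reads on 15 of 21 models and LINEs on 90 of 146. LTR elements followed with 123 of 306, and DNA transposons with 49 of 205. None of the 4 Helitron models, the rolling-circle transposons, and none of the 26 models of unknown class had a read.

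By class, 25 of 49 classes had no model with reads, and these hold 122 models. They include the 15 Gypsy models, an LTR group of ancient origin in mammals, the 11 DNA transposons with no further class and the 4 RTE-X models. A question mark in the class marks an uncertain assignment. Of the 45 models with one, only MER121, a DNA transposon, had a read (TPM 6.16, 0.253 to 29.1). L1, with 87 of 120 models, and the tRNA-Lys SINEs, with 11 of 12, were the best covered of the large classes. ERV1, the largest group of endogenous retroviruses here, had 71 of 136 models with reads, and ERVL had 34 of 102.

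**Figure D1:**
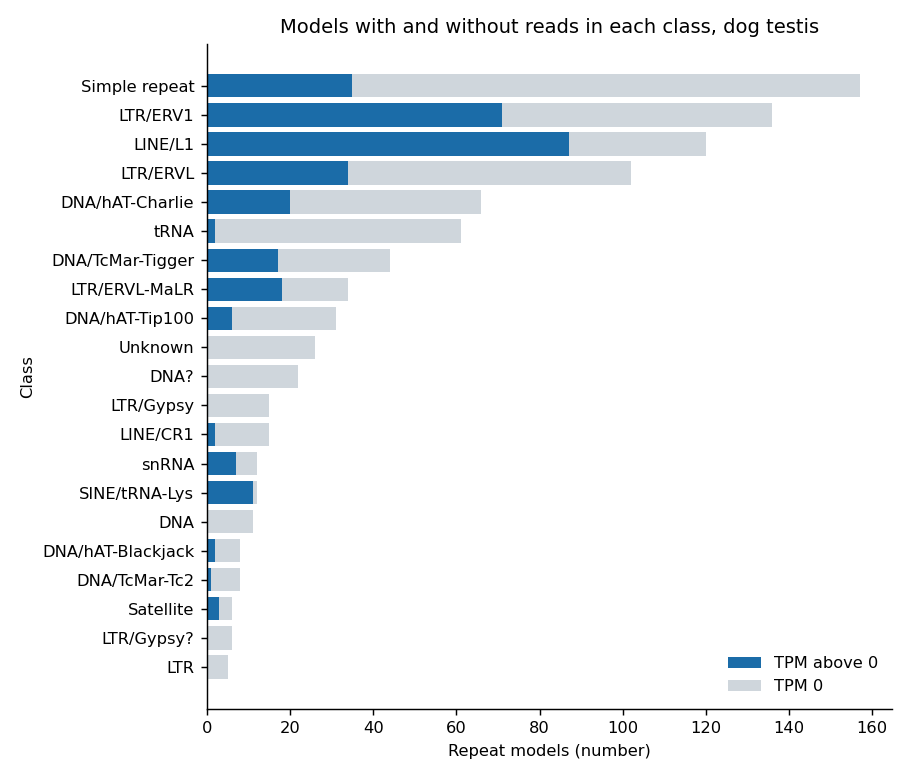
Number of repeat models with TPM above 0 (dark) and at 0 (light) in each class of at least 5 models, for the single dog testis mRNA library. The tRNA-Lys SINEs (11 of 12) and L1 (87 of 120) are mostly dark, while the Gypsy, unknown and unassigned DNA classes have no dark bar.

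Element RNA was held by few models. The 10 leading element models took 84.7% of the 456983 TPM on elements, and 7 of them were SINEC, the tRNA-Lys SINE of carnivores, and 3 were L1. Only 4 models were needed for 50% of the element TPM, 14 for 90% and 75 for 99%. Counted in reads, which give long models more weight, 5 models held 50%, 23 held 90% and 96 held 99%. SINEs took 76.6% of the element TPM but 23.2% of the element reads (exact Clopper-Pearson 95% interval 22.9 to 23.4%). LINEs took 20.7% of the TPM and 71.5% of the reads (71.2 to 71.7%). LTR elements took 2.11% of the TPM and DNA transposons 0.5997%. These intervals treat each rebuilt read as an independent count and cover no other error. They would be too narrow if reads are PCR copies of the same molecules, on which the labels used here say nothing.

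Model names that point to a dog or carnivore lineage marked nearly all of this RNA. Of the elements with Cf, Canis or Canid in the name, 24 of 24 had reads, and they held 64.1% of the element TPM and 78.7% of the element reads. Of those with carnivore names (Carn or Car, and the SINEC models not named for a species), 61 of 62 had reads, with 33.9% of the TPM and 16.8% of the reads. The one without was CarLTR6c, an LTR. Together the 86 models took 98.0% of the element TPM, and the 585 models with other names, of which 186 had reads (31.8%), took 1.93%. A further 11 models are variants of wider ERV1 families marked _CF, and 6 of them had reads. This is a description by names alone.

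L1 is the autonomous LINE of mammals, and the 5 highest LINE models were all dog- or canid-named L1. L1_Canis1_3end had a TPM of 26430.1 (25657 to 26709.9) and L1_Cf_3end one of 14637 (14118 to 14924). L1_Cf_orf2 followed at 10079 (9806 to 10174), L1_Canis1_orf2 at 8459.96 (8213 to 8557) and L1_Canis2_orf2 at 6343 (6150.2 to 6424). The intervals of these 5 did not overlap, so their order was set beyond counting error in this library. The remaining LINE classes had few reads. L2 had reads on 1 of 4 models (L2, TPM 0.840, 0.0468 to 3.85) and CR1 on 2 of 15, with L3b_3end at 5.91 (1.29 to 15.6) and Plat_L3 at 0.650. None of the 5 RTE models had a read, although the longest, L4_C_Mam, spans 5138 nt and its upper bound is a TPM of 1.35.

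L1 subfamilies are known to run from younger to older in the order L1MA, L1MB, L1MC, L1MD and L1ME, with the lineage-specific names younger still. All 12 dog- and canid-named L1 models had reads, with a median TPM of 3919, and all 13 carnivore-named ones, with a median of 366. Of the older groups, 9 of 9 L1MA models, 7 of 8 L1MB, 12 of 13 L1MC and 6 of 7 L1MD had reads, but 11 of 27 L1ME. The models numbered L1M1 to L1M8, which are not in this order, had reads on 13 of 25. The models of the 3-prime end were also taken alone. Their median TPM was 14637 for 3 dog and canid models, 1452 for 5 carnivore models, 36.1 for 9 L1MA, 201 for 7 L1MB, 11.8 for 8 L1MC, 77.7 for 3 L1MD and 1.1 for 16 L1ME. These medians count models at 0, which were found only in L1ME, where 8 of 16 had reads. Over those 8 the median was 25.1, above the 11.8 of L1MC. With models at 0 counted, the medians were highest for the lineage-named models and lowest for L1ME, with L1MB above L1MA. These models differ in the stretch they cover, with a median length of 2662 nt in L1MC, against 1047 nt in L1MA, 925 nt in L1MB and 1106 nt in L1MD. The L1MC models of 1080 and 1091 nt, L1MC1_3end and L1MC2_3end, had a TPM of 570 and 158, above the highest L1MD model, L1MD2_3end, at 119, so no order of L1MC and L1MD is read from the medians.

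Within the older groups single models stood out. L1MC1_3end had a TPM of 570 (499 to 637), the highest L1 level among models with neither a dog nor a carnivore name. L1MB3_3end followed at 463 (393 to 533) and L1MB7_3end at 318 (261 to 377). The 95 L1 models of this kind took 0.994% of the element TPM, and 62 of them had reads. HAL1, a LINE related to L1 that lacks one of its proteins, had reads on 3 of 4 models, the highest at a TPM of 3.88. The longest L1 model at 0 was L1M2_5end, of 2904 nt, with an upper bound of 2.41.

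The file splits L1 families into a 5end, an orf2 and a 3end model. The reverse transcriptase is encoded in orf2, and L1 copies are often cut short at the 5-prime end. Models of the 5-prime end were the least often seen, with reads on 27 of 50, against 44 of 52 for the 3-prime end and 13 of 13 for orf2. These 3 sets hold different families, so the counts mix the part with the family. The models numbered L1M1 to L1M8, with reads on 13 of 25, are in the 5end and orf2 sets only. In 14 families at least 2 parts were present, and 5 had all 3. The 3end model was above the 5end model in 10 of 10 families, with separate intervals in 9. In the other, L1MC4, the 3end model held only 0.190 reads against 0, too few to show a difference. The orf2 model was above the 5end model in 8 of 8, all with separate intervals.

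The size of this step differed between families. In L1_Cf the TPM went from 3888 (3728 to 3989) at the 5-prime end to 14637 at the 3-prime end, a ratio of 3.76. In L1_Canis1 the ratio was 8.96, in L1_Carn3 9.92 and in L1_Carn5 13.5. Among families with reads on the 5end model the ratio was largest in L1_Canid, from 132 (110.2 to 154) over 1623 to 3949 (3715 to 4111), or 29.9. In 3 older families the 5end model was at 0 while the other part had reads beyond its interval. L1MB4 went from 0 (upper bound 3.91) to 263 (211 to 316), L1MD2 from 0 (6.64) to 119 (88.5 to 154), and L1M2 from 0 (2.41) to 76.1 (61.2 to 91.01) in orf2.

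From orf2 to the 3-prime end the picture was less uniform. The 3end model was higher in 5 of 6 families, with separate intervals in 4. L1_Carn7 did not separate, with 695 (646 to 734) in orf2 and 784 (691 to 863) at the 3-prime end. L1_Carni went the other way, from 366 (319 to 409) in orf2 to 120.2 (81.6 to 167) at the 3-prime end. Its models are shorter than those of the other families, 1712 nt for orf2 and 696 nt for the 3-prime end.

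**Figure D2:**
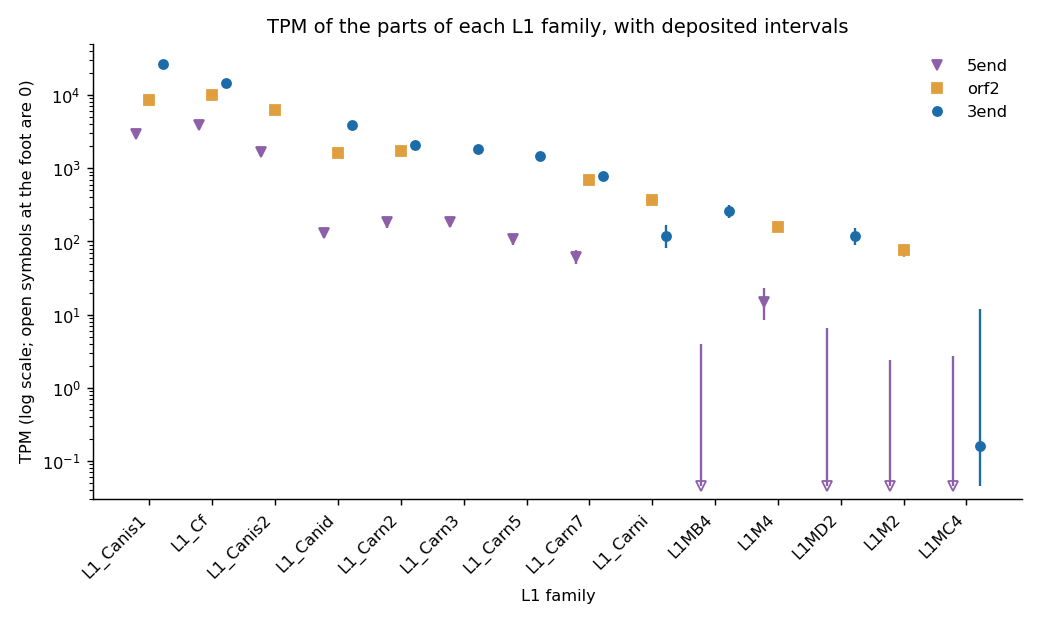
TPM (log scale) of the 5end, orf2 and 3end models of the 14 L1 families that have at least 2 of these parts, with vertical lines from the lower to the upper deposited bound; open symbols at the foot mark a TPM of 0. In every family with both, the 3end circle is above the 5end triangle, and L1_Carni is the family in which the orf2 square is above the 3end circle.

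SINEC elements carried most of the element TPM, 76.5%, but 23.1% of the element reads. SINEC_Cf led all element models at a TPM of 111292 (108149 to 112614), worth 24.4% of the element TPM. SINEC_a1 had 60982 (58545 to 62275), SINEC_Cf3 54379 (52054 to 55817), SINEC_a2 48752 (46611 to 49998) and SINEC_Cf2 41656 (39634 to 42989). These 5 are 179 to 189 nt long, and their intervals did not overlap. The 3 models named Cf took 45.4% of the element TPM and the 7 named a, b, c or old took 31.2%.

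The other SINEC models formed a second tier. SINEC_b2 had a TPM of 10384 (9514 to 11114) and SINEC_b1 8542 (7721 to 9179). SINEC_c2 had 5565, SINEC_old 4463 (3792 to 5129) and SINEC_c1 3664 (3228 to 4070). The intervals of c2 and old overlapped, as did those of old and c1, so the lower end of this order is not set. The models named Fc stood far below, with SINEC_Fc2 at 115 (52.8 to 203) and SINEC_Fc at 0 (upper bound 34.3), although both are 225 nt long.

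The ancient SINEs were near the limit of what 1 read can show. MIR, a SINE shared across mammals, had reads on 3 of 4 models and 9.54 reads in all. MIRc had a TPM of 57.1 (22.2 to 115), MIR 19.97 (2.94 to 63.4) and MIRb 14.2 (0.940 to 56.2), with overlapping intervals. MIR3, of 208 nt, was at 0 with an upper bound of 37.3, so a level like those of MIR and MIRb was not detectable as different. AmnSINE2 had 4.01 reads, and the 575 nt AmnSINE1 had none.

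LTR elements were led by ERV1 families named for the dog. CfERVF1_LTR had a TPM of 1799.97 (1596 to 1978), CfERV1z_LTR 1221 (1052 to 1382) and CfERV1a_LTR 1039 (893 to 1179.7). The first did not overlap with the other 2, which overlapped with each other. CfERV1c_LTR followed at 319 (231 to 416), and CfERV1, the 5919 nt model without LTR in its name, at 292 (269 to 311). All 9 CfERV models had reads, with a median TPM of 292, and 37 of 38 CarERV and CarLTR models of ERV1, with a median of 40.8 over all 38. Of the 11 ERV1 models marked _CF, 6 had reads, with LTR51_CF highest at 46.4 (23.6 to 76.3). ERV54-EC_LTR, with EC in its name, had 43.6 (18.4 to 84.6). Of the 77 other ERV1 models 18 had reads, and the highest, MER67C, had a TPM of 17.7. The longest ERV1 model at 0 was MER51-int, of 7816 nt, with an upper bound of 0.881, the lowest upper bound of any model at 0.

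An endogenous retrovirus has 2 identical LTRs, which hold its promoter, around an internal region that encodes its proteins. A solitary LTR is what remains after recombination between them. For 12 families an LTR and an internal model share the exact same base name. The LTR was higher in 6, with separate intervals in LTR53 and MER68, both models were at 0 in 6, and the internal model was higher in none. Among these, LTR53 had a TPM of 14.1 (3.47 to 37.1) against 0.7 (0.0317 to 3.28) for its internal model. These values rest on 3.001 and 0.996 reads. In MER34, MER50 and MER89 the LTR held only about 1 read, which is worth more TPM on the shorter LTR model. In MER34 the internal model held more reads, 5.99, so these pairs are too thin to set an order. The rule of the exact base name took only internal models marked as such in the name (-int or _I) with an LTR of the identical base. The dog- and carnivore-named families were therefore paired by the start of the name, a choice made after the values were seen.

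In 8 such families, with 26 pairs, the LTR was higher in 18 pairs, 15 of them with separate intervals, and the internal model was higher in 8, of which 2 were separate. CfERVF1_LTR was 10.4 times as high as CfERVF1, the internal model (174, 157 to 189). CarERV2 had a TPM of 7.89 against 15.4 to 183 in its 7 LTR models. CfERVF2 was the reverse, with 269 (249 to 285) in the model of 7205 nt and 48.6 in CfERVF2_LTR. CfERV1 also had both, as CfERV1b_LTR (165, 106 to 235) was below CfERV1 while CfERV1z_LTR and CfERV1a_LTR were above it. The pairs of a family share their internal model and are not independent.

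ERVL and MaLR elements, older LTR groups of placental mammals, took a small share of the element TPM. MaLR had reads on 18 of 34 models, led by MLT1B at a TPM of 273 (199 to 364), then MLT1A0 at 162 (105 to 237), MLT1D at 158, MLT1F1 at 153 and MLT1C at 144 (95.1 to 204). The intervals of these 5 overlapped from one to the next, so that their order is not set. ERVL had reads on 34 of 102 models but no model above the 62.2 (30.9 to 107) of MLT2D, and CarERVR1_LTR, at 56.5 (28.5 to 99.8), was not separate from it. MLT2B2 had 42.7, MLT2B1 39.2 and LTR40b 38.1. Together ERVL took 0.126% of the element TPM and MaLR 0.249%. MER76-int, of 6189 nt, was the longest ERVL model at 0.

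DNA transposons, which move by cut and paste and are regarded as long inactive in most mammals, were mostly without reads. Among them the Tigger class had reads on 17 of 44 models. Tigger1 stood alone at a TPM of 594 (543 to 637), 21.7% of all DNA transposon TPM and 2.12 times the next model. That was Tigger2a_Car at 281 (189 to 382), followed by Tigger1a_Car at 271 (200.3 to 351), MER47A at 214 (126 to 300.5) and MER44A at 194 (99.7 to 279). The intervals of these 4 overlapped. The 2 models marked _Car, both in the first 3, held 552 of the 1849.8 TPM of the class.

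The hAT-Charlie class had reads on 20 of 66 models. Charlie9 had a TPM of 157 (134 to 179) and Charlie10 one of 121 (102 to 141), both on models of over 2500 nt with more than 100 reads. MER58A (132, 65.7 to 221), MER20 (95.3) and MER3 (62.0) are short models with 4.94 to 11.4 reads, so their intervals were wide. The longest at 0 was Charlie17, of 2916 nt. In hAT-Tip100, with 6 of 31, Zaphod2 held 62.3% of the TPM of its class at 37.8 (28.5 to 48.0). Below it stood Arthur1C at 10.01 (0.410 to 41.4), on 1.46 reads. Kanga1 (4.05), Looper (3.33), MER53 (13.8), MER63B (14.7) and MER63D (7.29) were the only models with reads in 4 small classes, each with 1.001 to 3.26 reads.

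**Figure D3:**
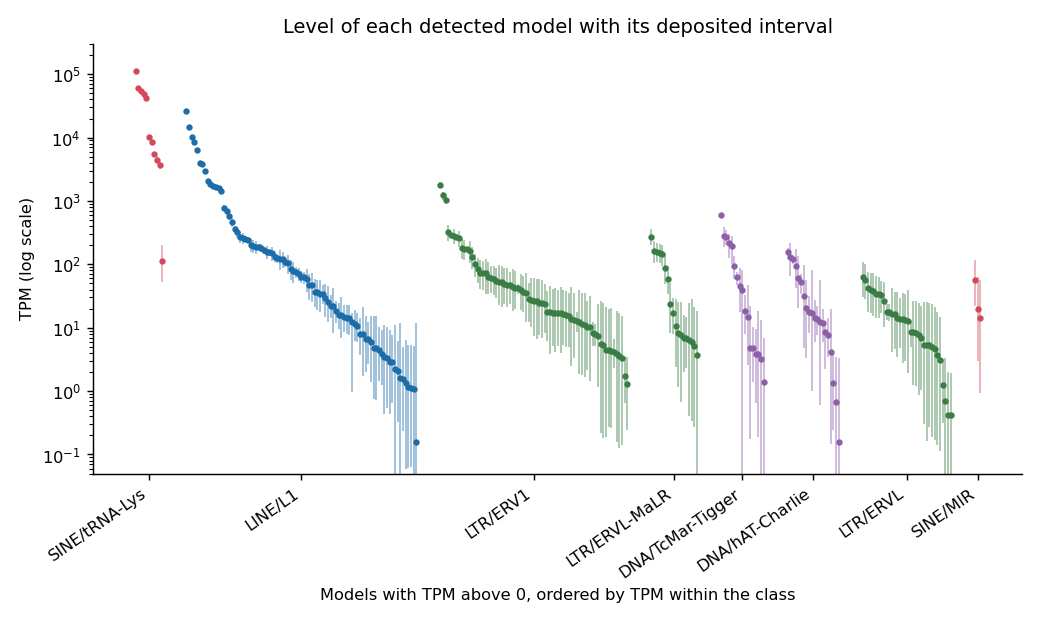
TPM (log scale) of every model with reads in 8 element classes, ordered by TPM within the class; points are the deposited TPM and vertical lines run from the lower to the upper deposited bound (cut at 0.05). SINEC spans 115 to 111292 and L1 0.160 to 26430.1, while no ERVL model is above 62.2.

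RNAs that are no transposable element were listed beside the elements. Ribosomal RNA took 51.2% of all TPM. The small-subunit model SSU-rRNA_Hsa had a TPM of 388284 (382818 to 386896) and the large-subunit model LSU-rRNA_Hsa one of 123019 (121181 to 122655). The small-subunit model was thus 3.16 times as high per length. Both TPM values lie above their own upper bounds, and both models carry Hsa and no dog label in the name. The 5S model had 263 (131 to 445). Of 12 snRNA models 7 had reads. This class is led by U6, the spliceosomal RNA made by RNA polymerase III, at 13090.1 (11823 to 14138), with 87.4% of its TPM. U3, a nucleolar RNA that acts in rRNA processing, had 770.1 (592 to 967), U1 558 (382 to 757), U2 341 (219 to 491) and U4 115 (44.3 to 233). U6 was 17 times as high as U3.

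Further RNAs of polymerase III were well covered. These were 7SK, which holds back a transcription elongation factor, at 1143 (962 to 1322), and 7SLRNA, the RNA of the signal recognition particle, at 1287 (1092 to 1480.2). The latter is filed under SINE/Alu and was kept out of the element counts. In contrast the 4 Y RNA models (HY1, HY3, HY4 and HY5) had no read, with upper bounds of 73.8 to 116. Only 2 of 61 tRNA models had reads, with 4.03 reads in all. They were tRNA-Ser-TCA at 114 (27.7 to 300.2) and tRNA-Lys-AAG at 46.03 (0.0360 to 223). These models are short, 73 to 89 nt, and the upper bounds of those at 0 were 104.5 to 142, above the median TPM of 24.4 of the element models with reads.

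Satellites, the long tandem repeats of heterochromatin, had reads on 3 of 6 models. Bsp had a TPM of 624 (536 to 711), SAT1_CF 265 (200.4 to 336) and CarSat1 30.5 (11.96 to 61.6), each separate from the next. Carsat2, of 456 nt, was at 0 with an upper bound of 16.1, below the TPM of CarSat1 but above its lower bound. Neither low-complexity model had a read.

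Simple repeats are runs of a short motif, and each of the 157 models is 180 nt long, so that 1 read is worth a TPM of 14.9. Reads were found on 35 of them. They were led by (GA)n at 2701 (2308 to 3089), (CA)n at 2403 (2031 to 2772), (GGAA)n at 2018 (1677 to 2354), (GAAA)n at 1670.2 (1362 to 1982) and (GGAAA)n at 563 (398 to 756). Grouped by the bases of the motif, 12 of 15 models made of G and A alone had reads, with 8609 of the 12963 TPM of simple repeats. Of motifs with 3 or 4 different bases, 15 of 109 had reads, with 1246 TPM in all. Motifs of A and T alone had reads on 4 of 8 models and 617 TPM.

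Other base groups were nearly empty or held by 1 model. Of motifs with A and C, or G and T, 4 of 15 had reads, and (CA)n held 2403 of their 2492 TPM. None of the 8 models made of G and C alone and neither of the 2 single-base models had reads, with upper bounds near a TPM of 43 to 45, or about 3 reads. No motif has a second model for its reverse complement (7 motifs are their own), and the strand of these RNAs was not analysed here.

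Over all element models, length was related to both the chance of having reads and the TPM, in opposite directions. Long models had reads more often. Under 200 nt 11 of 39 element models had reads, from 200 to 500 nt 64 of 187, from 500 to 1000 nt 88 of 252, from 1000 to 2500 nt 50 of 100, and from 2500 nt on 64 of 104. Without L1 and SINEC the difference in length was small, with a median of 575 nt for models with reads against 553 nt at 0. Among the 277 element models with reads the longer ones had the lower TPM, with Spearman's rho of -0.22. With the 405 models at 0 kept in, rho was 0.14, and for reads in place of TPM it was 0.16. These are descriptions across models of 1 library, which share its depth and its reads, and TPM holds the length in its own denominator.

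The smallest TPM that 1 read can give is lower for a longer model. One read is worth a TPM of 12.2 on MER58C, of 215 nt, but of 0.422 on HERVL40, of 5530 nt. Over the models with at least 10 reads rho was -0.38. That filter also sets a lowest TPM that falls with length, so it cannot separate the relation from this limit. Without L1 and SINEC, which hold 97.3% of the element TPM, rho was -0.39 for TPM and 0.079 for reads. Within groups rho was -0.36 for LTR elements (123 models) and -0.36 for DNA transposons (49), but -0.12 for LINEs (90). With reads in place of TPM it was 0.026 for LTR elements, 0.216 for DNA transposons and 0.077 for LINEs. For SINEs it was -0.80 for TPM and -0.77 for reads over 15 models, of which 11 are SINEC of 112 to 225 nt.

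Models at 0 were also found among the longest. Of the 204 element models of 1000 nt or more 90 were at 0, and of the 104 of 2500 nt or more 40. For those of 2500 nt or more, a single read would have been worth a TPM under 1. In DNA transposons models with reads were longer, with a median of 1061 nt against 346 nt at 0. In LTR elements they were not, with 560.0 against 622 nt.

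**Figure D4:**
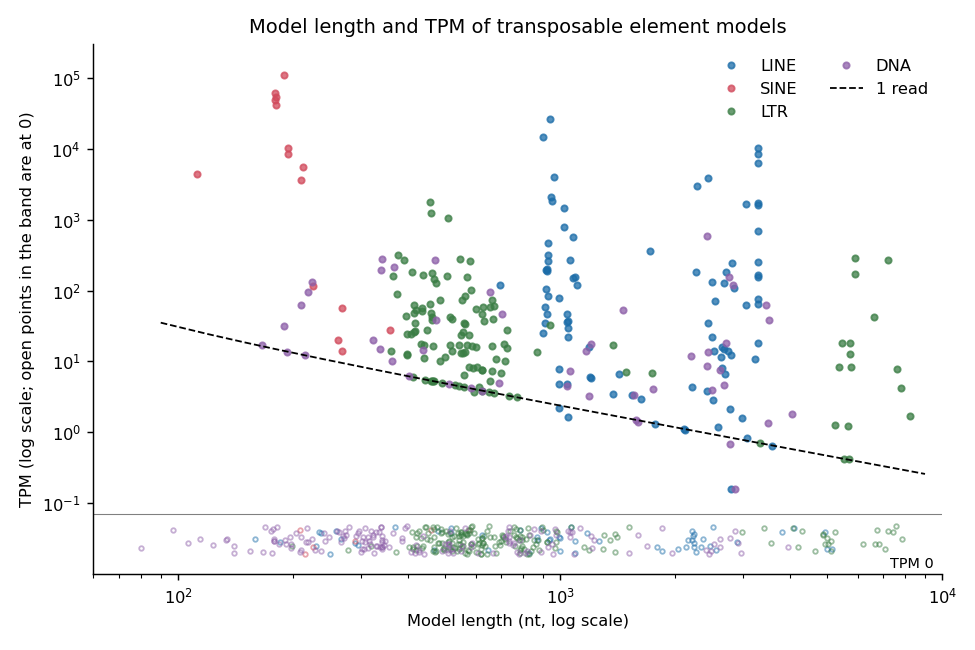
Model length (nt, log scale) against TPM (log scale) for LINE, SINE, LTR and DNA transposon models; open points in the band at the foot are at TPM 0, spread by chance in height, and the dashed line is the TPM of 1 read. The lowest points follow the dashed line, SINEs sit at the short and high end, and models at 0 are found at all lengths.

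The width of the deposited interval followed the number of reads. Over the 277 element models with reads the median width was 1.40 times the TPM, and over the 129 with at least 10 reads 0.557. For all 329 models it fell from a median of 4.68 under 1.5 reads over 1.81 at 3 to 10 reads and 0.605 at 30 to 100 reads to 0.0643 from 1000 reads on. A width worked out from counting error alone, the shortest 95% interval of a gamma distribution for the reads of the model, matched the deposited width within 10% in 305 of 329 models (92.7%). Those reads were rebuilt from the deposited TPM, with an offset fitted on the deposited values, so the match is no independent check. The narrowest relative intervals of the elements were those of L1_Cf_orf2 (0.0365) and L1_Canis1_3end (0.0399). The widest among those with at least 10 reads were MER44D (1.5) and Tigger2 (1.36).

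In 12 models the interval was more than 1.2 times as wide as counting error alone. The first was L1MC4_3end, with a TPM of 0.160 but an upper bound of 12.03, 4.27 times the counting width. A second model, L1MC4_3endX, has the same length of 2789 nt and held a TPM of 12.2 (0.978 to 17.2). Tigger2 (1.58 times), Tigger5b (1.41), MER44D (1.39) and MER44A (1.2007) also belong to this set, and so do both large rRNA models. In those 2, and in no other model, the TPM lay above its own upper bound: 388284 against 386896 for SSU-rRNA_Hsa and 123019 against 122655 for LSU-rRNA_Hsa. What widened these intervals was not tested.

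**Figure D5:**
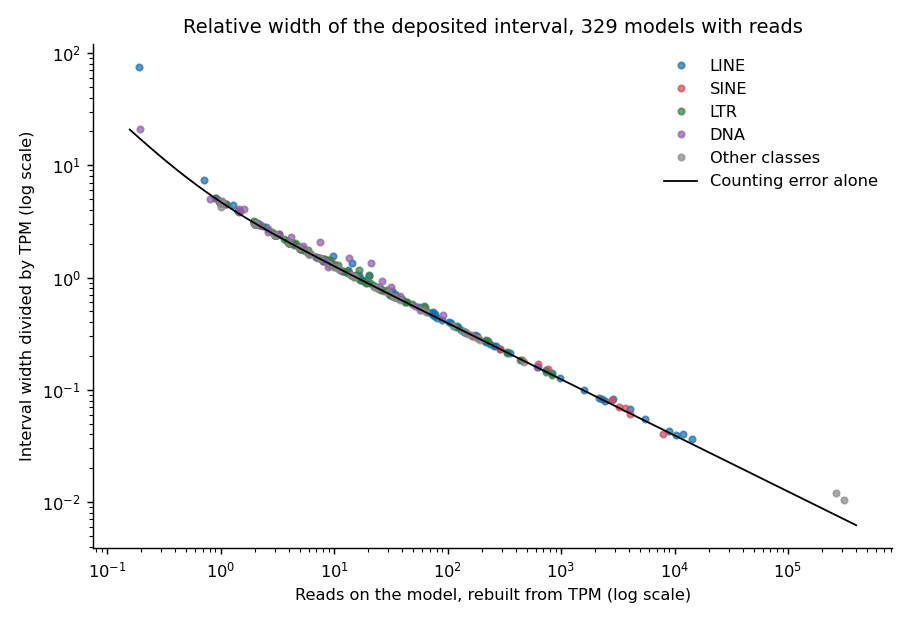
Deposited interval width divided by TPM (log scale) against rebuilt reads (log scale) for the 329 models with reads, coloured by group, with the width from counting error alone as a line. Most points lie on the line; L1MC4_3end at the upper left and the 2 large rRNA models at the lower right lie above it.

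The models at 0 show the same limit from below. The upper bound of 608 of the 626 was worth 2.8 to 3.2 reads, with a median of 2.97, where counting error alone gives 2.996. The narrow spread is partly set by the choice of 24 nt, at which these bounds varied least. A floor of 3 reads is 0.00289% of the element reads. For 18 models the upper bound was higher, up to 8.40 reads in MER47B, 5.79 in Charlie1, 5.62 in MER63C and 5.59 in MER58B and MER44B. Relatives of several of these with similar names had reads, such as MER47A (31.5 reads), MER58A (11.4) and MER44A (26.2). How reads were divided between such models was not tested. In TPM the upper bounds at 0 ran from 0.881 for MER51-int to 174.6 for U7, so a TPM of 0 sets a much tighter limit for a long model.

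Many detected models rest on very few reads. Of the 329, 91 had fewer than 3 reads and 57 fewer than 1.5, among them 42 within 0.05 of exactly 1 read. Only 155 had 10 or more and 62 had 100 or more. The lowest TPM above 0 were 0.160 for Charlie2a and L1MC4_3end, each worth less than 1 read, and 0.420 for HERVL40, worth 0.996 reads. The order of models was better set at the top. Of the 19 neighbouring pairs among the 20 leading element models 12 had separate intervals, and in 7 of 16 classes with at least 2 models with reads the first was separate from the second.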

How the data were processed

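One mRNA library of adult dog testis was described, with 955 repeat models and 679582 rebuilt reads. Per the file headers, the authors gave a TPM and a length for each model. Other values used are the lower and upper TPM bounds, also deposited by the authors, with a level and type not stated here. Per the submitters' processing notes, the build was CanFam3.1 and the tools were RSEM and Bowtie, with no version named. The read length of this library, the aligner settings and the origin of the repeat models are not stated in the sources used here.

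The length less 24 nt, multiplied by TPM and divided by 2322.44, gave the reads of a model. Offsets of 23 and 24 nt gave the same share of whole reads (within 0.05) among models under 20.5 reads, 53.7%. Of these, 24 nt was taken because the upper bounds of the models at TPM 0 varied least there. These steps were tested on simulated data that held only whole reads, so that test does not cover models with part of a read. Python 3.11.15, pandas 2.3.3, numpy 2.4.6 and scipy 1.17.1 were used. Transposable elements are the LINE, SINE, LTR, DNA and RC classes without 7SLRNA. The models named are the 5 highest of each class of at least 10 models, those with reads in smaller classes (up to 5), the longest at 0, the 2 narrowest and 2 widest intervals, the 3 lowest levels above 0 and the paired L1 and LTR families; others, among them L1MC1_3end, the Y RNAs and the models with wide intervals, were chosen after their values were seen. Members and lists were chosen with earlier results of these data known. Alternatives were stricter meanings of detected, reads or bounds in place of TPM, length and read filters, pseudocounts and other pairings. No file used here holds sequences of the models, so none are printed.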

Additional observations from a re-analysis of the deposited data

How the results depend on the processing

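The count of detected models was 329 with a TPM above 0, 238 with at least 3 reads, 155 with at least 10 reads, and 216 with a lower bound worth at least 1 read, a rule added after seeing the data. Every deposited lower bound is above 0, so a lower bound above 0 kept all 955 models and all 682 elements (643 of at least 200 nt), while 182 elements had a lower bound worth at least 1 read. The 10 leading elements held 84.7% of the element TPM, 71.2% by reads, 86.0% by lower bounds, 82.1% by upper bounds and 84.5% with 7SLRNA kept in. The rank correlation of length and TPM was -0.22, changed sign to 0.14 with zeros kept and to 0.16 for reads, and was -0.38 with at least 10 reads and -0.39 without L1 and SINEC (added after seeing the data). Over all elements Pearson's r of log2 length and log2(TPM + 1) was 0.058, 0.098 with a pseudocount of 0.1 and 0.016 with 10. The median relative width was 1.40, 0.557 with at least 10 reads, 1.23 over the midpoint and 1.01 over counting error alone. By reads 13 of 19 neighbouring pairs were separate, against 12 by TPM. By TPM, the internal model was higher in 0 of 12 LTR pairs with the exact base name, of which 6 were at 0 in both models. It was higher in 8 of 26 pairs of dog- and carnivore-named families. The 3end model of L1 was above the 5end model in 10 families, 9 with separate intervals and the other, L1MC4, on 0.190 reads. No paired analysis was possible because there is 1 library and no test. With 103631 element reads, depth limits most the models under 200 nt, and no value here has a replicate.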
